A study of Mus musculus with 11 samples.

Results

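Retinoic acid, the active acid of vitamin A, is made in cells in a pair of oxidation steps, and the RNA of genes for its synthesis, breakdown and reception was examined in colonic epithelial cells of mice fed with or without cellulose. The genes were chosen by symbol in the deposited table of read counts and are 9 of its 52550 genes: Rdh10, Dhrs9, Dhrs3, Aldh1a1, Aldh1a2, Aldh1a3, Cyp26b1, Rara and Rbp2. Aldh1a3 was put on this list because of its large difference between the diets, so its values are given as a description without a test. The FFD group was 6 RAG1 KO mice on the C57BL/6 background that ate a fiber-free diet for 4 weeks and then received 1.5% DSS for 5 days. The CD group was 5 mice of the same genotype, time on diet and DSS treatment, whose diet held 7% cellulose. RAG1 KO mice have no mature T or B cells, and dextran sulfate sodium (DSS) in drinking water damages the colonic epithelium, so both diets were examined in an injured colon. The age of the mice is not given in the labels, which give all CD samples the number 1 and all FFD samples the number 2. A cage or batch that went with this number cannot be told apart from the diet.

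Cells obtain retinol from carotenoids, from binding proteins in blood or from the diet, and oxidize it to retinaldehyde with retinol dehydrogenases, a step that retinaldehyde reductases such as Dhrs3 reverse. Retinaldehyde dehydrogenases of the Aldh1a family then make retinoic acid irreversibly, enzymes of the Cyp26 family degrade it, and retinoic acid receptors, paired with retinoid X receptors, bind it and act on genes with direct repeats of a short recognition motif. In the gut, retinoic acid made by epithelial cells and dendritic cells is known for its role in the homing of lymphocytes, in tolerance and in barrier function.

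Total counts were 10374154 to 27973285 per mouse (median 24261218) in FFD mice, with the lowest in FFD mouse 4, and 20853535 to 28588266 (median 25543054) in CD mice. The level of a gene is given in CPM, its counts scaled so that every library has the same total after TMM normalization. Differences are log2 fold changes of FFD over CD from edgeR's quasi-likelihood test, with p-values adjusted over all 15044 genes above the expression filter and a threshold of 0.05. Where nothing else is said, errors are SD over 6 FFD and 5 CD mice, 1 library each. Rag1, the targeted gene, had 8 to 40 counts per mouse, at 1.08 ± 0.176 CPM in FFD and 1.17 ± 0.221 CPM in CD mice. Which part of the gene these reads came from cannot be seen in the table. The sum of 8 epithelial markers (Epcam, Krt8 and others) was 12543 to 15762 CPM in FFD and 10921 to 13061 CPM in CD mice. In such bulk samples, fewer cells of a type and less RNA per cell cannot be told apart.

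Dhrs9 and Rdh10, which make retinaldehyde from retinol, rose in FFD mice, and Rara, a receptor of retinoic acid, rose by a small amount that several changes of the analysis removed. Aldh1a1, Dhrs3 and Rbp2 did not pass the test, and Aldh1a2 and Cyp26b1 had too few counts to be tested. Of the 8 genes other than Aldh1a3, 6 were tested, of which 3 passed the threshold of edgeR as higher and 0 as lower in FFD mice. The count of genes lower was 0 also at an unadjusted p under 0.05 and with DESeq2 and limma-voom. Among all genes tested, 18.2% were higher and 18.6% were lower in FFD mice, and the median log2 fold change was -0.03, against 0.18 for the 6 genes. The levels of Dhrs9 and Rdh10 did not overlap between the diets. Among all genes tested, 8.91% did not overlap with FFD mice higher and 9.59% with FFD mice lower.

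**Figure D1:**
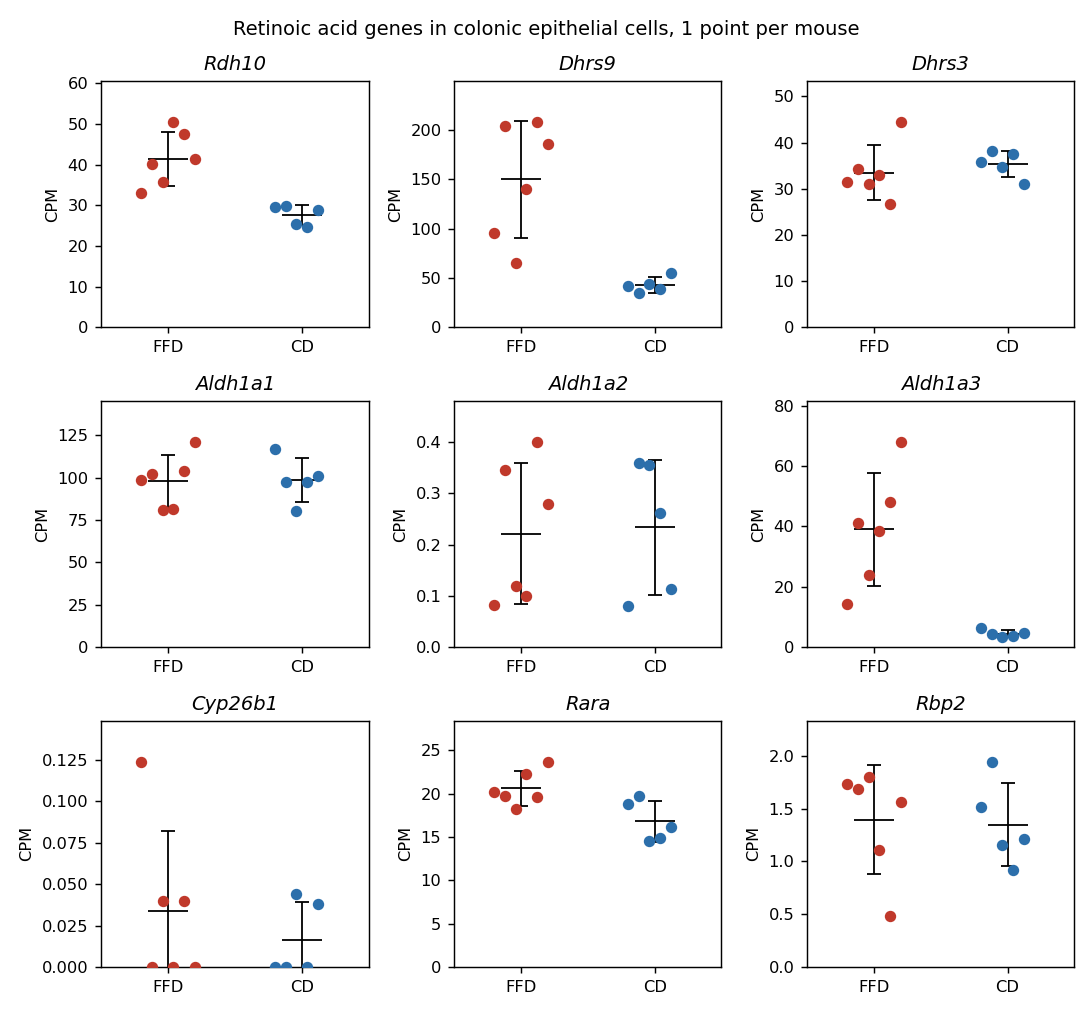
Level of the 9 retinoic acid genes in CPM (y axis, linear, a separate scale for each gene) in 6 FFD mice (red) and 5 CD mice (blue), with 1 point per mouse, a horizontal line at the mean and bars of 1 SD (bars that would pass below 0 end at the axis). All FFD mice lie above all CD mice for Aldh1a3, Dhrs9 and Rdh10, while the points of the other genes overlap.

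Rdh10, on GRCm38 chr1:16105774-16133734 on the plus strand, encodes the retinol dehydrogenase that supplies most retinaldehyde in the mouse embryo. It had 33.0 CPM in the lowest, 40.8 CPM at the median and 50.5 CPM in the highest FFD mouse, against 29.5, 29.9, 25.3, 24.7 and 28.9 CPM in CD mice 1 to 5. The lowest FFD mouse was thus above the highest CD mouse. Mean levels were 41.4 ± 6.71 CPM in FFD and 27.6 ± 2.47 CPM in CD mice, a log2 fold change of 0.58 (standard error, SE, 0.11, 95% confidence interval 0.34 to 0.81, adjusted p = 0.0023 from edgeR).

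Dhrs9, on chr2:69380445-69404533 on the plus strand, encodes a dehydrogenase of the short-chain family that oxidizes retinol and also acts on steroids. It had 64.6 CPM in the lowest, 163 CPM at the median and 208 CPM in the highest FFD mouse, against 41.4, 35.2, 44.3, 38.4 and 55.4 CPM in CD mice 1 to 5. The groups did not overlap, but FFD mouse 3 (64.6 CPM) and FFD mouse 1 (96.0 CPM) lay well below the other FFD mice, which had 140 to 208 CPM. Means were 150 ± 59.7 CPM in FFD and 42.9 ± 7.77 CPM in CD mice, a log2 fold change of 1.80 (SE 0.27, 95% confidence interval 1.22 to 2.39, adjusted p = 0.0011 from edgeR). The coefficient of variation was 39.9% in FFD and 18.1% in CD mice.

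Dhrs3, on chr4:144892827-144928209 on the plus strand, encodes the reductase that returns retinaldehyde to retinol, and is itself induced by retinoic acid in many tissues. It had 26.6, 32.2 and 44.4 CPM in the lowest, median and highest FFD mouse, against 35.7, 38.3, 34.6, 37.4 and 31.1 CPM in CD mice 1 to 5. Except for FFD mouse 6, which was the highest of all mice, the FFD mice lay within or below the range of the CD mice. Means were 33.5 ± 5.98 CPM in FFD and 35.4 ± 2.82 CPM in CD mice. The log2 fold change was -0.08 (SE 0.11, adjusted p = 0.57 from edgeR), and its 95% confidence interval of -0.32 to 0.15 leaves out a change of the size seen in Rdh10.

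In the summed RNA of Aldh1a1, Aldh1a2 and Aldh1a3, Aldh1a3 held a larger part in each FFD mouse than in any CD mouse. Aldh1a3, on chr7:66390890-66427517 on the minus strand, encodes one of the retinaldehyde dehydrogenases and had 343, 951, 593, 383, 1203 and 1219 counts in FFD mice 1 to 6 and 155, 124, 72, 112 and 121 counts in CD mice 1 to 5. As levels these are 14.2, 41.1, 23.7, 38.6, 48.2 and 68.0 CPM in FFD mice and 6.17, 4.46, 3.19, 3.68 and 4.59 CPM in CD mice. The lowest FFD mouse, mouse 1, was still above the highest CD mouse. Means were 39.0 ± 18.9 CPM in FFD and 4.42 ± 1.14 CPM in CD mice, a ratio of means of 8.82 and a fitted log2 fold change of 3.14. The FFD mice spread widely, with a coefficient of variation of 48.4%, against 25.7% in CD mice.

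Aldh1a1, on chr19:20492715-20643465 on the plus strand, encodes the isozyme that epithelia commonly use. It had 80.8, 100.4 and 121 CPM in the lowest, median and highest FFD mouse, against 117, 97.5, 80.2, 97.3 and 101 CPM in CD mice 1 to 5. The groups covered nearly the same range. Means were 98.0 ± 15.3 CPM in FFD and 98.5 ± 13.0 CPM in CD mice, and the log2 fold change of -0.01 (SE 0.11, adjusted p = 0.97 from edgeR) had a 95% confidence interval of -0.25 to 0.24 and changed sign in 7 of 19 alternatives. Aldh1a2, on chr9:71215789-71296243 on the plus strand, encodes the isozyme known from dendritic cells, stroma and the embryo. It had 1 to 10 counts per mouse, 29 in all FFD mice and 31 in all CD mice, or 0.221 ± 0.138 CPM in FFD and 0.234 ± 0.132 CPM in CD mice, so a difference was not detectable at this depth.

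Counts per kb of exon make levels of different genes comparable. On this scale Aldh1a3 held 13.3% of the sum of the 3 isozymes in the lowest, 31.4% at the median and 37.4% in the highest FFD mouse, against 5.34%, 4.63%, 4.04%, 3.86% and 4.63% in CD mice 1 to 5. Its mean share was 28.5% ± 8.70 in FFD and 4.50% ± 0.581 in CD mice, and that of Aldh1a1 was 71.2% ± 8.77 in FFD and 94.97% ± 0.428 in CD mice. Aldh1a1 thus held the larger share in every mouse of both diets. The summed level of the 3 isozymes was 28.4 ± 6.65 CPM per kb (21.6 to 39.4) in FFD and 21.02 ± 2.83 CPM per kb (17.1 to 25.0) in CD mice, and these ranges overlapped. Aldh1a7, a relative of Aldh1a1 described below, was left out of this sum (on average 2.83 CPM per kb in FFD and 3.93 CPM per kb in CD mice). Since Aldh1a3 was chosen for its difference, neither its share nor the sum was tested.

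**Figure D2:**
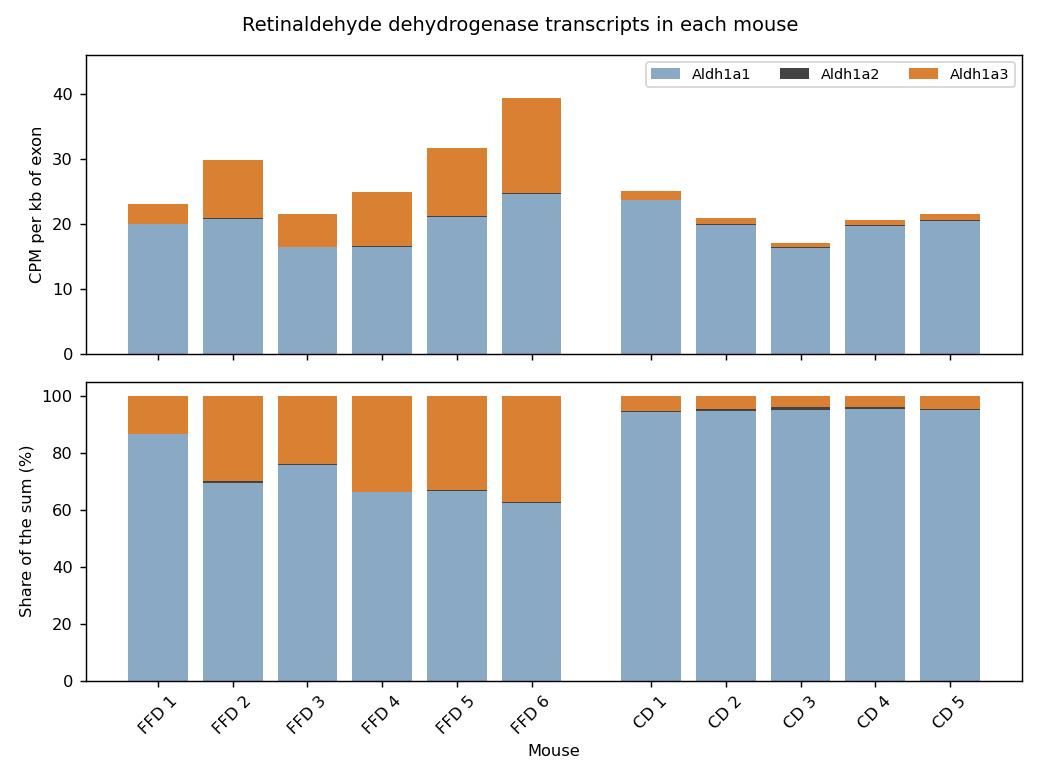
Level of Aldh1a1 (blue), Aldh1a2 (black) and Aldh1a3 (orange) in each of 6 FFD and 5 CD mice, stacked, in CPM per kb of exon (top) and as a percentage of the sum of the 3 genes (bottom). The orange part holds 13.3% to 37.4% in FFD mice and 3.86% to 5.34% in CD mice, the blue part has a like height on both diets, and the black part is barely visible.

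For breakdown, Cyp26b1 on chr6:84571414-84593908 on the minus strand, whose product oxidizes retinoic acid to forms that are removed, had 3, 0, 1, 0, 1 and 0 counts in FFD mice 1 to 6 and 0, 0, 1, 0 and 1 counts in CD mice 1 to 5. No mouse passed 3 counts, the limit that a count of 0 allows, which was 0.120 to 0.302 CPM in FFD and 0.0985 to 0.133 CPM in CD libraries. Its relatives Cyp26a1 and Cyp26c1 had 4 counts each over all mice. RNA of these 3 Cyp26 genes was therefore at the limit of detection on both diets, and this limit covers counting error only. Enzymes outside the Cyp26 family were not examined for breakdown.

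Rara, on chr11:98927818-98974942 on the plus strand, encodes the alpha form of the retinoic acid receptor. It had 18.2, 19.9 and 23.7 CPM in the lowest, median and highest FFD mouse, against 18.8, 19.8, 14.5, 14.8 and 16.1 CPM in CD mice 1 to 5. CD mice 1 and 2 lay within the range of the FFD mice and CD mice 3, 4 and 5 below it. Means were 20.6 ± 1.99 CPM in FFD and 16.8 ± 2.37 CPM in CD mice, a log2 fold change of 0.29 (SE 0.10, 95% confidence interval 0.07 to 0.51, adjusted p = 0.038 from edgeR). The call was lost without any one of CD mice 3, 4 and 5 and FFD mice 1, 2, 4 and 6 (log2 fold changes 0.25 to 0.30, adjusted p = 0.051 to 0.091 from edgeR). Without TMM scaling the log2 fold change was 0.14 (adjusted p = 0.27), and with genes of low counts kept the adjusted p was 0.072.

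Rbp2, on chr9:98486115-98509781 on the plus strand, encodes the retinol-binding protein of absorptive cells of the small intestine. It had 0.481, 1.62 and 1.80 CPM in the lowest, median and highest FFD mouse, against 1.51, 1.94, 1.15, 0.920 and 1.22 CPM in CD mice 1 to 5. FFD mouse 5 was the lowest of all mice and the other values mixed. The log2 fold change was 0.06 (SE 0.31, adjusted p = 0.90 from edgeR), and its 95% confidence interval of -0.61 to 0.73 is wide enough to hold a change of the size seen in Rdh10. Its sign changed in 7 of 19 alternatives as well.

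In the order of levels per kb, Dhrs9 came first in FFD mice (35.0 CPM per kb), before Aldh1a1 (19.9), Dhrs3 (11.4), Rdh10 (9.94), Aldh1a3 (8.44), Rara (4.72) and Rbp2 (1.45). The ranges over FFD mice overlapped between Dhrs9 and Aldh1a1 and between each neighbouring pair from Dhrs3 to Rara. In CD mice Aldh1a1 came first (19.96 CPM per kb), before Dhrs3 (12.1), Dhrs9 (10.03), Rdh10 (6.65), Rara (3.85), Rbp2 (1.40) and Aldh1a3 (0.957). There the ranges overlapped between Dhrs3 and Dhrs9 and between Rbp2 and Aldh1a3. Aldh1a2 and Cyp26b1 came last on both diets, at 0.177 CPM per kb or less in every mouse.

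FFD mice 1 and 3 had the lowest levels of Aldh1a3, Dhrs9 and Rdh10 among the FFD mice. As deviations from the mean of each diet over 11 mice, the log2 CPM of Rdh10 (Pearson's r = 0.72) and Dhrs9 (0.69) followed Aldh1a3 more closely than did Aldh1a1 (0.58), Rara (0.54), Dhrs3 (0.36) and Rbp2 (-0.24). These are descriptions, since all genes share the same libraries, and among 12549 genes with at least 1 CPM on each diet Rdh10 ranked 700th and Dhrs9 948th. The 5 genes most like Aldh1a3 by this measure were Arl8a (0.96), Lpp (0.95), Mast4 (0.94), Tbc1d23 (0.94) and Naip5 (0.94). Arl8a encodes a small GTPase of lysosomes and Naip5 a sensor of bacterial flagellin. With Spearman's correlation the 5 genes that ranked highest included 0 of these.

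Some markers of other cell types also differed between the diets, where 18.2% of all genes tested were higher and 18.6% lower in FFD mice. The sum of 7 neutrophil markers was 110.1, 226.4, 73.4, 166.6, 285.5 and 255.2 CPM in FFD mice 1 to 6 and 26.5 to 72.4 CPM in CD mice, so FFD mice 1 and 3 were lowest there too. Of these markers 3 were higher in FFD mice (Ly6g, Ltf and S100a8), and Ly6g made up most of the sum. Mean Ly6g was 153 CPM in FFD and 33.5 CPM in CD mice, against 2.46 and 0.877 CPM for S100a8. Neither S100a9 (2.59 CPM in FFD and 1.42 CPM in CD mice) nor Csf3r (0.795 and 0.699 CPM) was called. Cxcr2 and Mpo had too few counts for a test, and Mpo was at 0 in some mice. Whether the sum follows the number of neutrophils was not tested. The sum of 8 colonocyte markers was 9554 to 16782 CPM in FFD and 5135 to 7785 CPM in CD mice, with 5 of 8 higher, that of 6 goblet cell markers was 10021 to 16049 CPM in FFD and 4058 to 8709 CPM in CD mice, with 4 higher and 1 lower, and that of 6 genes of dividing cells was 307 to 735 CPM in FFD and 712 to 1010 CPM in CD mice, with 3 lower. Of 10 markers of macrophages and monocytes, all tested, 3 were higher (30%, sums of 126.8 to 156.3 CPM in FFD and 84.5 to 124.9 CPM in CD mice). Of 8 markers of dendritic cells 4 were tested and 1 was higher (25%, 4.92 to 7.70 CPM in FFD and 3.50 to 5.62 CPM in CD mice, with Cd209a at 0 in some). Of 10 markers of fibroblasts and muscle 8 had too few counts to be tested and neither of the others passed (sums of 6.95 to 8.92 CPM in FFD and 5.98 to 8.52 CPM in CD mice), and Col1a1, Col1a2, Col3a1, Dcn, Des, Lum and Pdgfra were at 0 in some mice. Of 7 markers of innate lymphoid and NK cells 5 were tested and 1 was higher (20%, 23.3 to 47.8 CPM in FFD and 19.5 to 26.1 CPM in CD mice). Of 6 markers of endothelium 3 were tested and 1 was higher (33.3%, 7.57 to 9.08 CPM in FFD and 7.25 to 9.26 CPM in CD mice). Of 5 markers of mast cells 3 were tested and 1 was lower (33.3%, 16.3 to 33.2 CPM in FFD and 26.4 to 51.5 CPM in CD mice). These shares rest on 1 gene each. No tested marker of small intestinal enterocytes (106 to 176 CPM in FFD and 109 to 186 CPM in CD mice) or glia (0.413 to 0.907 CPM in FFD and 0.443 to 1.07 CPM in CD mice) passed, and the 4 markers of mesothelium were too low to be tested and each at 0 in some mice (0.101 to 0.605 CPM in FFD and 0.036 to 0.296 CPM in CD mice). The part of these other cells, and of the makeup of the epithelium, in the values of Aldh1a3, Dhrs9, Rdh10 and Rara was not tested.

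Beyond the 9 genes, lists of the retinoid pathway held 49 further genes, of which 38 were tested, 7 were higher (18.4%), 10 were lower (26.3%) and 21 did not pass. The share of genes higher lies near that of all genes and the share lower is above it, with a median log2 fold change of -0.18, against -0.03 over all genes. Both shares rest on few genes, as do those of the separate lists below, and no test of a list was run. Among retinol and retinaldehyde dehydrogenases and reductases, 4 of 14 tested genes were higher and 4 lower (28.6% each, against 18.2% and 18.6% of all genes tested). The 4 that rose, Rdh16, Rdh9, Rdh1 and Rdh19, are close relatives in a cluster on chromosome 10 whose products oxidize retinol and some steroids. Rdh16 had 90.1, 153, 80.0, 142, 205 and 175 CPM in FFD mice 1 to 6 and 45.98, 31.4, 31.6, 44.5 and 58.5 CPM in CD mice 1 to 5. Its groups did not overlap, and FFD mice 1 and 3 were again the lowest of their diet. Means were 141 ± 48.2 CPM in FFD and 42.4 ± 11.4 CPM in CD mice, which is 1.73 on the log2 scale (edgeR, adjusted p = 0.0010). Rdh9 (1.34), Rdh19 (1.26) and Rdh1 (1.06) had smaller log2 fold changes (adjusted p = 0.0015 to 0.0032 from edgeR), also without overlap between the diets. How reads shared by these relatives were counted is not known, and the exons of Rdh9 share 64.1% of their length with Rdh16f1, so the split among them is uncertain.

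The 4 dehydrogenases and reductases that fell did so by less. They were Rdh11 (log2 fold change -0.44, 33.8 ± 4.14 CPM in FFD and 46.1 ± 6.07 CPM in CD mice), Dhrs4 (-0.39), Adh5 (-0.37) and Rdh13 (-0.30), with adjusted p = 0.0028 to 0.0069 from edgeR. Rdh11 and Dhrs4 encode enzymes that mainly reduce retinaldehyde, Adh5 a broad dehydrogenase best known for clearing formaldehyde, and Rdh13 a relative in mitochondria. Adh1, the classical alcohol dehydrogenase that oxidizes retinol when it is abundant, was named after its values were seen: it had 347 ± 186 CPM in FFD and 606 ± 129 CPM in CD mice and did not pass (log2 fold change -0.81, SE 0.32, adjusted p = 0.067 from edgeR). Aldh1a7, a close relative of Aldh1a1 in the mouse, was listed under retinaldehyde oxidation, though whether its product oxidizes retinaldehyde was not examined. It had a log2 fold change of -0.47 (5.84 ± 1.24 CPM in FFD and 8.13 ± 1.24 CPM in CD mice, adjusted p = 0.029 from edgeR). That call was lost without any one of CD mice 1, 2 and 4 and FFD mice 4, 5 and 6 (-0.47 to -0.37, adjusted p = 0.054 to 0.089).

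Of 13 tested genes of retinol uptake, binding and storage other than Rbp2, 1 rose (7.69%, against 18.2% of all genes tested) and 4 fell (30.8%, against 18.6%). Bco1, which cleaves beta-carotene to retinaldehyde, was higher (3.51 ± 0.372 CPM in FFD and 2.19 ± 0.297 CPM in CD mice, log2 fold change 0.68, adjusted p = 0.0035 from edgeR). Scarb1, a receptor that takes up carotenoids and cholesterol esters, was lower (11.9 ± 2.57 CPM in FFD and 20.2 ± 2.52 CPM in CD mice, log2 fold change -0.76, adjusted p = 0.0023). The intracellular carriers Rbp7 (-1.62) and Fabp5 (-1.06) and Ttr (-1.38), which carries retinol in blood together with Rbp4, fell as well (adjusted p = 0.0029 to 0.014 from edgeR). Ttr had 25.4 CPM in CD mouse 2, the highest of all mice, and without that mouse its log2 fold change was -0.90 (adjusted p = 0.044 from edgeR). Among receptors other than Rara, 1 of 4 tested genes fell (25%, against 18.6% of all genes tested). This was Rxrb, a partner of the retinoic acid receptors, with 40.9 ± 4.01 CPM in FFD and 54.7 ± 5.09 CPM in CD mice, without overlap (log2 fold change -0.42, adjusted p = 0.0025 from edgeR). Rxra, another partner, had 103 ± 10.5 CPM in FFD and 92.9 ± 8.17 CPM in CD mice and did not pass (adjusted p = 0.15; named after its values were seen). Of 6 coregulators, all tested, 2 rose (33.3%, against 18.2% of all genes tested) and 0 fell. These were the coactivators Ncoa3 (0.43, adjusted p = 8.0e-04 from edgeR) and Ncoa1 (0.39, adjusted p = 0.0064 from edgeR). The shares of uptake genes, receptors and coregulators rest on few genes.

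**Figure D3:**
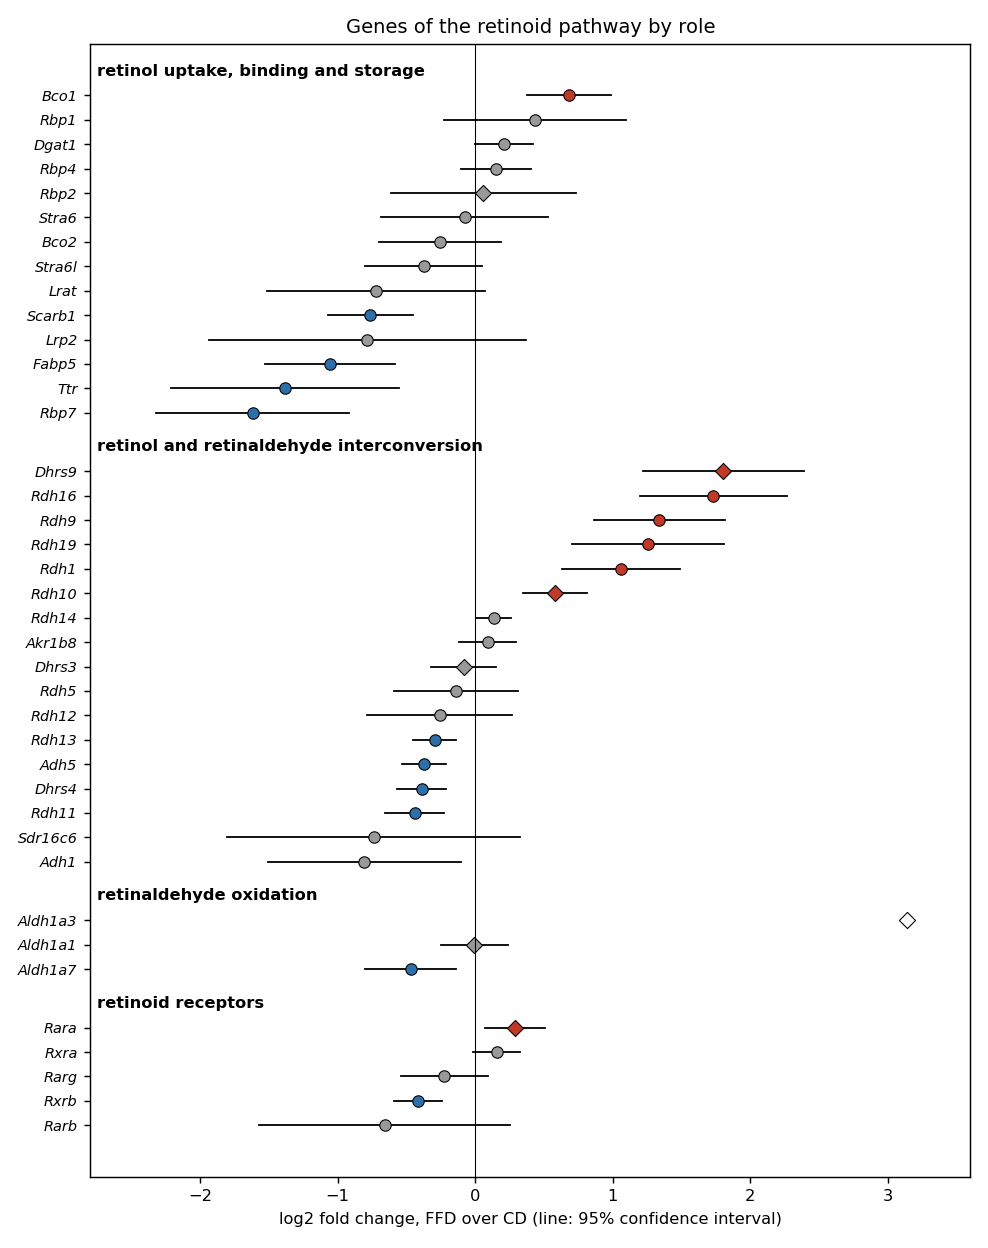
Log2 fold change of FFD over CD (x axis) for tested genes of the retinoid pathway, grouped by role, with 95% confidence intervals from edgeR; diamonds are among the 9 retinoic acid genes and circles are other genes, red means higher, blue lower and grey not past an adjusted p of 0.05. Aldh1a3 is an open diamond without interval since it was chosen for its difference, and the interconversion group runs from 1.80 for Dhrs9 to -0.81 for Adh1.

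Whether genes that retinoic acid is known to induce moved with the diets was examined on a list of 16 genes other than Dhrs3 and Cyp26b1. Of these 11 were tested, 1 was higher (9.09%, against 18.2% of all genes tested) and 0 were lower (against 18.6%) in edgeR, with a median log2 fold change of 0.07, against -0.03 over all genes. At an unadjusted p under 0.05, 1 was lower, Cdx1, an intestinal homeobox gene (404 ± 39.7 CPM in FFD and 481 ± 64.7 CPM in CD mice, log2 fold change -0.25, adjusted p = 0.055 from edgeR). Cdx1 was called lower with DESeq2, without TMM scaling, with a stricter filter and without FFD mouse 1, and both Cdx1 and the retinol-esterifying enzyme Lrat without CD mouse 5, so the count of genes lower was 1, 1, 1, 1 and 2 in these fits. Tgm2, a transglutaminase, was the one that rose, with 250, 445 and 699 CPM in the lowest, median and highest FFD mouse, against 207, 142, 215, 205 and 264 CPM in CD mice 1 to 5. FFD mouse 3 lay within the range of the CD mice and the other FFD mice above it. The means were 443 ± 177 CPM in FFD and 207 ± 43.3 CPM in CD mice (log2 fold change 1.10, SE 0.25, edgeR adjusted p = 0.0056). Its exons overlap those of Gm20412 and Rprd1b over 21.8% of their length. Rarb, a receptor gene that retinoic acid induces in many cells, had 0.935 ± 0.446 CPM in FFD and 1.53 ± 0.784 CPM in CD mice (log2 fold change -0.66, 95% confidence interval -1.57 to 0.26, adjusted p = 0.24). Its exons overlap other genes over 38.4% of their length. Isx, an intestinal homeobox gene that retinoic acid induces and whose product represses Bco1 and Scarb1, had 123 ± 27.8 CPM in FFD and 112 ± 5.96 CPM in CD mice (log2 fold change 0.14, 95% confidence interval -0.14 to 0.42, adjusted p = 0.42). Isx, Rarb, Cdx1 and Lrat were named after their values were seen.

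**Figure D4:**
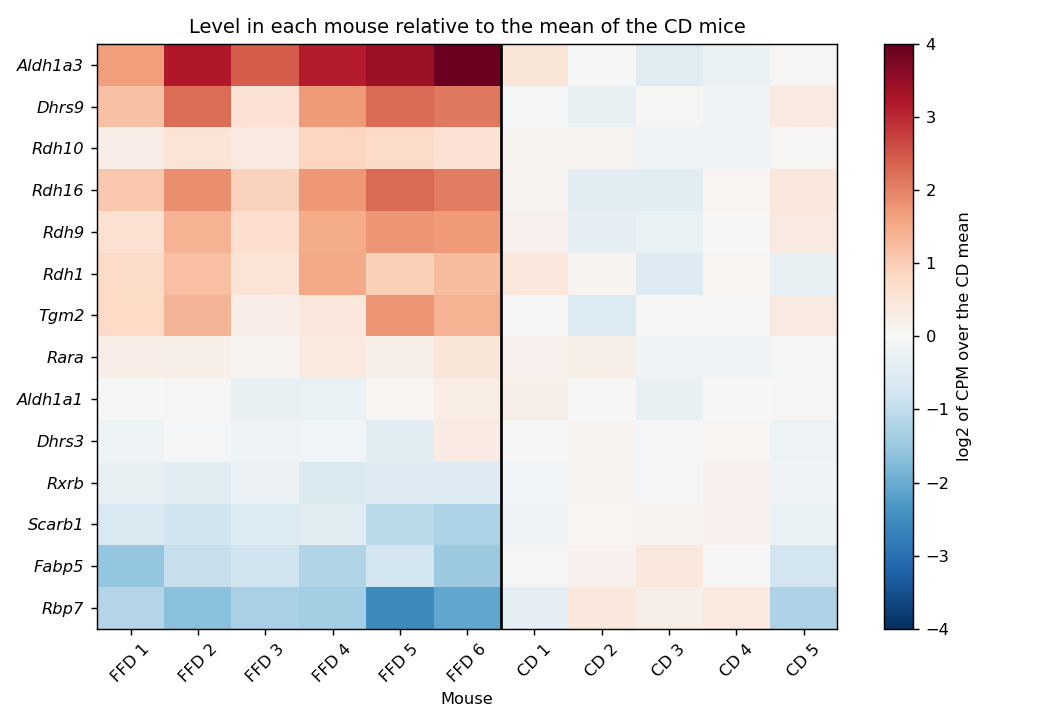
Log2 ratio of the CPM in each mouse (columns, 6 FFD then 5 CD mice) to the mean of the CD mice (color, from -4 in blue to 4 in red) for retinoic acid genes and called pathway genes (rows, chosen after their values were seen). FFD mice 1 and 3 are paler than the other FFD mice for Aldh1a3, Dhrs9, Rdh16 and Rdh9, and Aldh1a1 and Dhrs3 stay near 0 in all mice.

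The start regions of these genes were searched for the sequence that receptor pairs bind. RefSeq promoter windows for GRCm38.p6, 250 bases before to 50 bases after a start site, were at hand for 7 of the 9 genes, in 13 windows, and none for Aldh1a3 and Rdh10. The recognition motif was searched as AGGTCA or one of its variants AGTTCA and GGTTCA on both strands, and as a direct repeat of any of these with a spacing of 1, 2 or 5 bases. Of the 13 windows, 0 held a direct repeat, against 0.1%, 0.21% and 0.0609% of 32851 promoters for spacings of 1, 2 and 5 bases. With such small shares, 0 was the likely count for any 13 windows, and some of these overlap, so it tells nothing particular to these genes. Single motifs, which 35% of all promoters hold, were found at Dhrs9 (1), Rbp2 (2) and in 2 of the 4 windows of Rara (3 and 1). Of the retinoic acid-induced genes, 2 of the 10 with a window, Rarb and Cyp26a1, held a direct repeat with a spacing of 5 bases. By window this was 2 of 16, against 0.0609% of all promoters. The repeat starts 53 bases before the start site in Rarb and 32 bases before it, on the minus strand, in Cyp26a1. Both genes were listed as known to be induced by retinoic acid, and the searched variants make up both repeats. The matches are therefore no independent finding. The window of Dhrs9, which had the largest log2 fold change of the 6 tested retinoic acid genes (chr2:69380212-69380511, plus strand), is shown with its single motif in capitals as read on the plus strand, and those of Rarb (chr14:16575427-16575726, minus strand) and Cyp26a1 (chr19:37697558-37697857, plus strand) with the repeated motifs in capitals, each 5′ to 3′ along the gene.
Dhrs9: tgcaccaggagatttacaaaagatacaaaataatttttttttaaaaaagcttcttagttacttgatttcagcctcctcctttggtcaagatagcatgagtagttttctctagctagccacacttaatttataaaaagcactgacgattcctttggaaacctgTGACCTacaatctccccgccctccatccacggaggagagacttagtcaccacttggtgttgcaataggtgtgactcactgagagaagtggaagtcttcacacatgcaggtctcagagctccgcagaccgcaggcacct
Rarb: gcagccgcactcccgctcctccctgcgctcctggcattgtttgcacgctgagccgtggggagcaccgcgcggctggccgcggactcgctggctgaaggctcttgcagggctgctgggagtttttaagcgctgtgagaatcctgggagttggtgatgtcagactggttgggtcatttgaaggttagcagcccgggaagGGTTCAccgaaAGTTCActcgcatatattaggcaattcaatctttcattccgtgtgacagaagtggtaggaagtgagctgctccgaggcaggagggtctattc
Cyp26a1: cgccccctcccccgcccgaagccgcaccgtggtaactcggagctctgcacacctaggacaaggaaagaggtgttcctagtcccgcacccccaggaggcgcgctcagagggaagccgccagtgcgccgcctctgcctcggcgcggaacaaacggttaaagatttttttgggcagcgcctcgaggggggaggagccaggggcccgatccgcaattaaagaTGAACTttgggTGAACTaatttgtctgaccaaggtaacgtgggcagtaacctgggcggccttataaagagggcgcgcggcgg
The capitals in Dhrs9 are TGACCT, the complement strand of AGGTCA. Of the genes of these windows, Dhrs9 had the log2 fold change of 1.80 given above. That of Rarb was -0.66 and did not pass (adjusted p = 0.24 from edgeR), and Cyp26a1, with 4 counts over all mice, was not tested. Whether the motifs bear on these levels was not tested. A match describes the letters in the window only.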

How the data were processed

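RNA of colonic epithelial cells was analysed from 6 FFD and 5 CD mice, 1 library per mouse. The authors released the cells with DTT and EDTA, enriched them on a Percoll gradient, selected poly(A) RNA (integrity number above 8), used the NEBNext Ultra II kit for libraries and sequenced single reads of 59 bp. Reads were mapped by the authors to GRCm38 in CLC Workbench 10.0.1 of Qiagen, and they deposited the raw read count per gene. R 3.5.1, DESeq2 1.22.2 and FastQC also stand in the submitters' processing notes. For annotation release, strand and multimapping reads, the setting was not given in the sources used here, which leaves the split of reads among close relatives such as the Rdh genes of chromosome 10 uncertain.

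Low genes were removed with edgeR 4.0.16 under R 4.3.3 (filterByExpr, minimum count of 10 and minimum total of 15), and the rest was scaled by TMM (factors 0.893 to 1.05 in FFD and 1.03 to 1.08 in CD mice) and tested for diet alone with the quasi-likelihood test. Benjamini-Hochberg adjustment of p-values ran over 15044 genes. The standard error is the log2 fold change divided by the root of the F statistic. CPM was computed from the scaled totals, log2 CPM with a prior count of 2, and CPM per kb with the exon length of GENCODE M 21 for GRCm38. Within a diet, no pair of mice was alike within sampling noise (lowest chi-square of 11.1 per degree of freedom), so each library was counted as a replicate. The procedure was tested on simulated counts.

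The 9 genes, the 7 lists of pathway and response genes and the 15 lists of cell type markers were chosen with earlier results of these data known. The result of 1 of the marker lists is not reported here. Named genes are the 9, up to 4 further called genes per list and direction with the smallest p, and the 5 genes most like Aldh1a3. Genes named outside this rule are said to be so or are markers given as levels. As alternatives, 19 other fits were run: DESeq2 1.42.0, its size factors in edgeR, no TMM, no filter, a filter of 1 CPM in 5 libraries, voom of limma 3.58.1, a robust fit, a replicate block and each mouse left out in turn.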

Additional observations from a re-analysis of the deposited data

Results flagged for a closer look

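In 50 groups of mice searched for a value far from its group, 3 values stood out, and chance alone flags about 1 group in 20. Dhrs4 was at 40.6 CPM in FFD mouse 3, above the other FFD mice by 0.646 of the range of that diet. Ncoa3 was at 54.2 CPM in FFD mouse 3, below the other FFD mice by 0.642 of the range. Rdh11 was at 56.6 CPM in CD mouse 3, above the other CD mice by 0.765 of the range. None of these values belongs to the 9 retinoic acid genes.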

How the results depend on the processing

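Of the 9 retinoic acid genes, Dhrs9 (log2 fold change 1.62 to 1.97), Rdh10 (0.42 to 0.63) and, as a description, Aldh1a3 (2.83 to 3.31) kept their direction, and Dhrs9 and Rdh10 their call, in all 19 alternatives. The count of genes other than Aldh1a3 that were higher was 2 or 3 and that of genes lower was 0. Rara kept its direction in all and lost its call in 10 of them, including the fit without TMM, the fit without a filter and the replicate block. For the other pathway genes the counts were 6 to 8 higher and 9 to 13 lower, with 7 to 8 and 9 to 11 when a mouse was left out. Aldh1a1 turned to 0.011 with DESeq2, 0.011 with DESeq2 size factors, and was -0.076 to 0.076 with a mouse left out, above 0 without CD mouse 1, 2 or 5 or FFD mouse 3 or 4. Rbp2 turned to -0.078 without TMM, -0.013 with limma-voom, and was -0.047 to 0.25 with a mouse left out, below 0 without CD mouse 4 or FFD mouse 1, 2 or 3. Neither gene was called in any of these fits. Retinoic acid-induced genes called lower numbered 1 with DESeq2, 1 without TMM and 1 with the strict filter, and 0 to 2 with a mouse left out, and the cause was not tested. The mean share of Aldh1a3 among the isozymes was 26.7% to 31.5% in FFD and 4.29% to 4.66% in CD mice with a mouse left out. By counts without length it was 27.2% in FFD and 4.23% in CD mice. Of 474 values over 25 named genes, 443 kept direction and side of the threshold, 17 lost their call (Rara and Aldh1a7) and 14 changed sign (Aldh1a1 and Rbp2).

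The labels do not say whether the replicate numbers pair the mice. The correlations of the deviations of same-numbered mice were -0.18, -0.28, 0.18, -0.26 and 0.23, and 2 of 5 CD mice correlated best with their own number. With so few mice these values cannot decide whether a pairing exists. With the replicate block, 1953 genes were higher and 1829 lower, against 2740 and 2792 without it. Under the block, 2 of the genes other than Aldh1a3 were higher (Rara was at 0.25 with an adjusted p of 0.095 in edgeR) and the log2 fold change of Rbp2 was -0.057. Aldh1a7 also lost its call under the block (-0.44, adjusted p = 0.055 from edgeR). Without TMM the median log2 fold change of all genes moved by -0.15, and 1636 genes were higher and 4863 lower. Genes at few counts, above all Aldh1a2 and Cyp26b1, are limited by depth, and the floor of 3 counts covers counting error only. Nothing in the labels says that mice came from separate cages. The p-values set the difference between diets against the spread of these mice within a diet. They do not cover variation between cages that went with the diet.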
